A study of Mus musculus with 10 samples.

Results

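RNA levels of a set of basic helix-loop-helix (bHLH) and helix-loop-helix (HLH) factors were examined in mouse liver and in 2 kinds of liver tumour. The set consisted of Olig1, Atoh8, Hes1, Hes6, Hey1, Id1, Id2, Id3, Tcf3 and Tcf4, which are 10 of the 16697 genes in the table. These genes were chosen by their levels in the same libraries, so their levels and differences are described here without a test. All 10 passed the filter on low values, which asked for at least 1 FPKM in at least 3 libraries. FPKM are fragment counts per gene length and effective library size (reads times a scaling factor), so that levels of different genes can be compared per length. Olig1 and Hey1 passed it only with the c-MYC/FOXO1AAA libraries counted.

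The 10 libraries came from normal liver (NL, n = 4), from tumours induced with c-MYC and the empty vector pT3 (c-MYC, n = 3) and from tumours induced with c-MYC and FOXO1AAA, a constitutively active, MYC-tagged form of FOXO1 (c-MYC/FOXO1AAA, n = 3). Plasmids were delivered to hepatocytes by hydrodynamic tail vein injection together with the sleeping beauty transposase, the EF1α promoter drove the FOXO1AAA transgene, and tumours were collected from moribund mice. All mice are labelled wild type, and no age or treatment is given for the normal livers. The strain field reads C57BL/6 for every library, while the extraction note reads FVB for the normal livers and the study's list of mice gives FVB/N for both kinds of tumour. That list and the RNA methods name no MCL1 for these tumours, and only 1 figure legend adds it to the controls. Were MCL1 present in the control tumours only, its effect and that of FOXO1AAA cannot be told apart. The labels do not say that each library is a separate mouse, so the p-values below measure the spread between these libraries only.

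bHLH factors bind the E-box, a short DNA motif, as dimers, with the basic region touching the DNA and the helix-loop-helix holding the partners together. E proteins such as Tcf3 and Tcf4 are the common partners of tissue-specific factors, and ID proteins, which lack the basic region, bind E proteins and keep them off DNA. HES and HEY factors are repressors that Notch signalling induces, while ID genes and Atoh8 are among the genes that respond to BMP signalling through SMAD proteins in liver.

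The libraries held 13123719 to 20547746 reads. Foxo1, the gene of the second transgene, had a mean of 7.12 FPKM ± 0.532 (SD) in the 4 NL libraries, 5.62 FPKM ± 0.721 (SD) in the 3 of c-MYC and 83.1 FPKM ± 12.8 (SD) in the 3 of c-MYC/FOXO1AAA. The mouse Myc row was lower in the tumours, at 0.494 to 0.987 FPKM in c-MYC and 0.809 to 1.04 FPKM in c-MYC/FOXO1AAA against 4.10 to 22.2 FPKM in NL (limma treat adjusted p 0.000219 and 0.000433). Whether reads of the c-MYC transgene count in that row is not given in the sources used here, so the row does not check the label. Hepatocyte markers (11 of 12 listed genes in the table) summed to 117071 to 127288 FPKM in NL, 6432 to 8387 FPKM in c-MYC and 1198 to 2714 FPKM in c-MYC/FOXO1AAA, and no marker of the list was without reads in any group. Stellate and mesenchymal markers (9 of 9) summed to 87.9 to 111 FPKM in NL, 12.0 to 39.9 FPKM in c-MYC and 455 to 497 FPKM in c-MYC/FOXO1AAA. In bulk tissue, fewer cells of a type and less RNA per cell cannot be told apart.

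Promoter sequences were available for 5 of the 10 genes (RefSeq, build GRCm38.p6, 250 bases before to 50 bases after the start of transcription). Atoh8 and Id3 are shown because both were lowest in c-MYC, and Id2 because it was lowest in c-MYC/FOXO1AAA, so that a reader can see what the windows hold. The sequences are Atoh8 at chr6:72235528-72235827 on the minus strand, Id2 at chr12:25096043-25096342 on the minus strand and Id3 at chr4:136143572-136143871 on the plus strand, each written 5′ to 3′ along the gene. Capitals mark every match, on either strand, to the E-box CANNTG, the N-box CACNAG that HES factors bind, the FOXO motif GTAAACA, the RBPJ motif TGGGAA and the SMAD1/5 motif GGCGCC.
Atoh8: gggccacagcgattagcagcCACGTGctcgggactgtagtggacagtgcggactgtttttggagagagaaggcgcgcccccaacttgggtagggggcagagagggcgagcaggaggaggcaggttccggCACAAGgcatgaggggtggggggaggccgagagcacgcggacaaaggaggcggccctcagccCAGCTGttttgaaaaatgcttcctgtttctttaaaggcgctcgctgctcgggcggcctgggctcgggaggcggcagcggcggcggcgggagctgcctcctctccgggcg
Id2: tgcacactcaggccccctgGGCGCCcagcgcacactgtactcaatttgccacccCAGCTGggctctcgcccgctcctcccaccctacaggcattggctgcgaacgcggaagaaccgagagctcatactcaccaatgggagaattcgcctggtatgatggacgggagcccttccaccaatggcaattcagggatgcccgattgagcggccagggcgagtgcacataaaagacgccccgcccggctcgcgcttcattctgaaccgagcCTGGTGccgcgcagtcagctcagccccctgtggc
Id3: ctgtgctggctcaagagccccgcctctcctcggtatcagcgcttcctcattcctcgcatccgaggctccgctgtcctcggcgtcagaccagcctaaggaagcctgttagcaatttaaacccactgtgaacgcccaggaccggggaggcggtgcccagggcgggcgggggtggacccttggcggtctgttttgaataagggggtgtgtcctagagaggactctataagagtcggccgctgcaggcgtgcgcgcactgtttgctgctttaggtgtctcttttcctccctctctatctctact

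The Atoh8 window held CACGTG, the E-box that MYC prefers, 230 bases before the start, and CAGCTG, an E-box that E proteins prefer, 59 bases before it. CACGTG occurs in 7.15% of 32851 promoter windows of this length and CAGCTG in 16.3%, and both also count among the E-boxes, which occur in 72.3%. The Id2 window held CAGCTG 196 bases before the start and the SMAD1/5 motif 231 bases before it, a motif found in 11.9% of windows. The Id3 window held none of these letters. Over the 6 windows of the genes (Hes6 has 2), 5 held an E-box, 4 held CAGCTG, 1 held CACGTG, 3 held the N-box (42.5% of all windows), and none held the FOXO motif (3.65%) or the RBPJ motif (25.6%). A match describes the letters of the window and is not a binding site.

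Olig1, a factor of the oligodendrocyte lineage in brain (chromosome 16, 91269772 to 91271933, plus strand, GRCm38), was close to silent in both other groups and the most abundant of the 10 genes in c-MYC/FOXO1AAA. NL 1 to NL 4 held 0.837, 1.57, 0.711 and 1.08 FPKM, from 15 to 32 reads each. Among the c-MYC libraries, only c-MYC 3 held a read, a single one that equals 0.0252 FPKM, and c-MYC 1 and c-MYC 2 held none. In c-MYC/FOXO1AAA the level was 163, 184 and 149 FPKM from 6305 to 11890 reads. Every c-MYC/FOXO1AAA library therefore lay far above all others, and every NL library lay above every c-MYC library. The ratio of reads per effective library size between c-MYC/FOXO1AAA and c-MYC was 20160, with a 95% interval from 3618 to 796290 (exact, for counting error only). The same ratio between NL and c-MYC was 125 (21.8 to 4981). Relative to NL, the c-MYC/FOXO1AAA mean was 157 times as high. On the other strand the annotation places a lincRNA, Gm15966, over Olig1, and without a stated strand setting reads of the pair cannot be separated.

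Olig2, the neighbouring relative that specifies the same brain lineage, is not in the set but had the pattern of Olig1. It held no read in any NL or c-MYC library and 70.4, 78.0 and 48.3 FPKM in the c-MYC/FOXO1AAA libraries. It was at least 3167-fold higher than in c-MYC, counted against 3 reads over the c-MYC group, and at least 2235-fold higher than in NL. Like Olig1, it passed the filter on low values only with the c-MYC/FOXO1AAA libraries counted. Genes that passed only through the group in which they were high are given here without a p. Those of them named by rule were also past the threshold when no filter was applied. They were named for their large differences, so this adds no support. Of the 6 oligodendrocyte markers tested, 3 rose (15.9% of all genes tested) from c-MYC to c-MYC/FOXO1AAA and none fell (12.7%). Besides Olig2 these were Mobp, a myelin gene without a read in NL and c-MYC and at 1.21, 2.23 and 1.05 FPKM in c-MYC/FOXO1AAA, and Pdgfra, a receptor gene that mesenchymal cells also express, at 0.0533, 0.0779 and 0.373 FPKM in c-MYC and 3.51, 4.04 and 5.99 FPKM in c-MYC/FOXO1AAA (log2 difference 4.86, SE 0.56, limma treat adjusted p 7.92e-05). Mobp also passed the filter only with c-MYC/FOXO1AAA counted. Mbp, a myelin protein gene, was 19.5, 20.2 and 10.9 FPKM in c-MYC/FOXO1AAA, 17.6, 23.1 and 19.3 FPKM in c-MYC and 0.511 to 1.83 FPKM in NL. Cspg4 was lower in c-MYC/FOXO1AAA (0.385, 1.12 and 0.666 FPKM) than in c-MYC (2.30, 1.99 and 1.64 FPKM), but not past the threshold. Cnp was 5.25, 5.04 and 6.17 FPKM in c-MYC/FOXO1AAA, 8.81, 4.95 and 5.68 FPKM in c-MYC and 11.9 to 13.8 FPKM in NL. Between c-MYC and NL, 2 of the 6 markers rose and 2 fell (24.5% and 23.6% of all genes tested). Mag stayed at or under 0.225 FPKM and Gpr17 at or under 0.279 FPKM in every library, and Sox10, Mog and Nkx2-2 were not analysed here. The whole list (9 of 12 genes in the table) summed to 14.4 to 16.9 FPKM in NL, 27.6 to 30.7 FPKM in c-MYC and 73.9 to 111 FPKM in c-MYC/FOXO1AAA, where Olig2 made up most of it.

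Atoh8, an atonal-related bHLH factor (chromosome 6, 72206177 to 72235577, minus strand, GRCm38), had nearly vanished from c-MYC. The NL libraries held 10.9, 12.6, 13.8 and 10.9 FPKM and the c-MYC libraries 0.116, 0.0451 and 0.116 FPKM, which are 5, 2 and 5 reads. In c-MYC/FOXO1AAA the level was 26.1, 18.5 and 15.6 FPKM. The 3 groups did not overlap, with c-MYC lowest and c-MYC/FOXO1AAA above NL. The c-MYC mean was 0.765% of that in NL. The mean in c-MYC/FOXO1AAA was 218 times that in c-MYC and 1.67 times that in NL. The SD was 11.7% of the mean in NL, 44.2% in c-MYC, where reads were few, and 27.2% in c-MYC/FOXO1AAA.

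**Figure D1:**
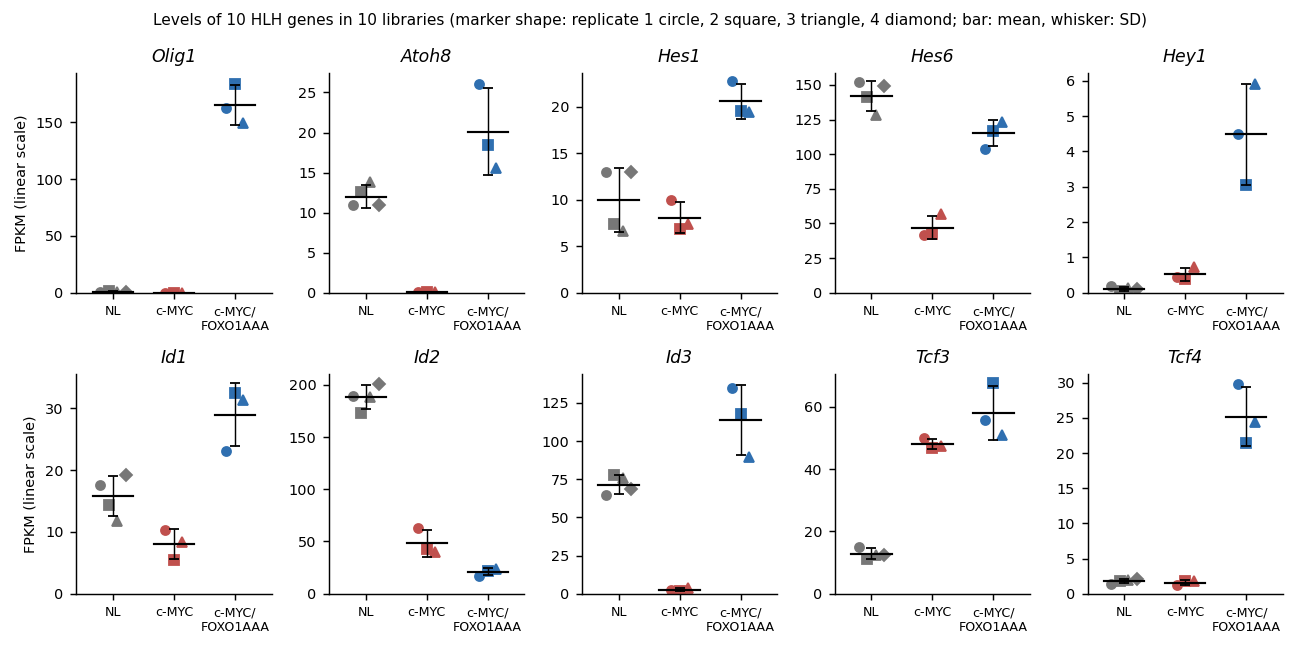
Levels of the 10 genes in every library, in FPKM on linear axes that start at 0, 1 panel per gene. Points are libraries (4 NL, 3 c-MYC, 3 c-MYC/FOXO1AAA), bars are group means and whiskers SDs. Olig1, Tcf4 and Hey1 were high only in c-MYC/FOXO1AAA, Atoh8 and Id3 were near 0 only in c-MYC (0.0451 to 3.92 FPKM), and Id2 fell from NL through c-MYC to c-MYC/FOXO1AAA.

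Hes1, the main effector of Notch signalling among HES repressors (chromosome 16, 30064384 to 30067796, plus strand), was at a similar level in NL and c-MYC and higher in c-MYC/FOXO1AAA. The NL libraries held 13.0, 7.37, 6.63 and 13.0 FPKM, the c-MYC libraries 9.98, 6.87 and 7.38 FPKM, and the c-MYC/FOXO1AAA libraries 22.8, 19.6 and 19.5 FPKM. NL and c-MYC overlapped, while each c-MYC/FOXO1AAA library lay above all 7 of the other libraries. Its mean there was 2.55 times that in c-MYC.

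Hes6, a relative that counteracts Hes1 (chromosome 1, 91411483 to 91414038, minus strand), was among the most abundant of the 10 genes in all groups. It stood at 152, 141, 128 and 149 FPKM in NL, at 41.8, 42.3 and 56.7 FPKM in c-MYC and at 104, 117 and 123 FPKM in c-MYC/FOXO1AAA. No groups overlapped, with c-MYC lowest at 33% of the NL mean and c-MYC/FOXO1AAA between the others at 80.5% of it.

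Hey1, a HES-related repressor that responds to Notch and BMP signals (chromosome 3, 8663359 to 8667256, minus strand), rested on few reads outside c-MYC/FOXO1AAA. The NL libraries held 1 to 5 reads, or 0.0438 to 0.187 FPKM, and the c-MYC libraries 0.450, 0.394 and 0.741 FPKM from 18 to 33 reads. The level in c-MYC/FOXO1AAA was 4.49, 3.05 and 5.91 FPKM. The groups stood in the order NL, c-MYC, c-MYC/FOXO1AAA without overlap, and Hey1 was the least abundant of the 10 genes in NL and in c-MYC/FOXO1AAA.

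Id1, an inhibitor of E proteins and a BMP target (chromosome 2, 152736251 to 152737410, plus strand), held 17.6, 14.4, 11.8 and 19.2 FPKM in NL, 10.3, 5.51 and 8.33 FPKM in c-MYC and 23.1, 32.5 and 31.3 FPKM in c-MYC/FOXO1AAA. The groups did not overlap, but the gap between the lowest NL library and the highest c-MYC library was small next to the spread within NL. The c-MYC/FOXO1AAA mean was 3.61 times that in c-MYC and 1.84 times that in NL.

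Id3, a second BMP-responsive inhibitor (chromosome 4, 136143497 to 136145755, plus strand), showed the pattern of Atoh8 at a higher level. It stood at 64.5, 77.6, 75.6 and 68.4 FPKM in NL, at 2.69, 1.54 and 3.92 FPKM in c-MYC and at 135, 118 and 89.6 FPKM in c-MYC/FOXO1AAA. All c-MYC libraries were far below all others, and all c-MYC/FOXO1AAA libraries lay above NL. The c-MYC mean was 3.79% of that in NL, and the c-MYC/FOXO1AAA mean was 42.1 times that in c-MYC.

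Id2, the most abundant of the 10 genes in NL (chromosome 12, 25093799 to 25097140, minus strand), was the one member that was lower in both kinds of tumour and lowest in c-MYC/FOXO1AAA. The NL libraries held 189, 173, 188 and 201 FPKM, the c-MYC libraries 63.2, 42.4 and 39.6 FPKM and the c-MYC/FOXO1AAA libraries 17.2, 21.9 and 24.0 FPKM. No groups overlapped, and c-MYC 1 stood apart from the other c-MYC libraries towards NL. The mean fell to 25.8% of NL in c-MYC and to 11.2% of NL in c-MYC/FOXO1AAA.

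Tcf3, which encodes the E proteins E12 and E47 (chromosome 10, 80409514 to 80433647, minus strand), was higher in both kinds of tumour. It stood at 15.1, 11.1, 12.4 and 12.5 FPKM in NL, at 49.8, 46.8 and 47.4 FPKM in c-MYC and at 55.6, 67.6 and 50.9 FPKM in c-MYC/FOXO1AAA. The tumour libraries all lay above NL at 3.75 and 4.54 times its mean, and those with FOXO1AAA lay only just above c-MYC, at 1.21 times its mean.

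Tcf4, the E protein E2-2 and not the Wnt effector of the same nickname (chromosome 18, 69343356 to 69689079, plus strand), was low in NL, at 1.44, 1.77, 1.95 and 2.15 FPKM, and in c-MYC, at 1.17, 1.82 and 1.78 FPKM. These groups overlapped. In c-MYC/FOXO1AAA it reached 29.8, 21.5 and 24.4 FPKM, 15.8 times the c-MYC mean and 13.8 times the NL mean.

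The order of the 10 genes by mean level differed between the groups. In NL it ran Id2 (188 FPKM), Hes6 (142 FPKM), Id3 (71.5 FPKM), Id1 (15.8 FPKM), Tcf3 (12.8 FPKM), Atoh8 (12.0 FPKM), Hes1 (9.98 FPKM), Tcf4 (1.83 FPKM), Olig1 (1.05 FPKM) and Hey1 (0.112 FPKM), and the libraries of Id1, Tcf3, Atoh8 and Hes1 overlapped from each to the next, as did those of Tcf4 and Olig1. In c-MYC, Id2, Tcf3 and Hes6 led at 48.4, 48.0 and 46.9 FPKM without a gap between them, and Atoh8 and Olig1 came last. In c-MYC/FOXO1AAA, Olig1 led at 165 FPKM ± 17.8 (SD, n = 3), ahead of Hes6 (115 FPKM ± 9.31) and Id3 (114 FPKM ± 23.0), whose libraries overlapped, and Id1, Tcf4, Id2, Hes1 and Atoh8 followed Tcf3 as a run of overlapping neighbours from 29.0 to 20.1 FPKM.

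Differences between the groups were then taken from a linear model of the deposited log2 FPKM over 14017 genes (limma treat, which tests for a change above 1.5-fold, called at a Benjamini-Hochberg adjusted p under 0.05). Both comparisons with c-MYC use the same c-MYC libraries, and both comparisons with NL use the same NL libraries. The counts of the 10 genes below stand beside the share of all genes called, and nothing is read from them, because these differences chose the genes.

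Between c-MYC and NL, 2 of the 10 genes were past the threshold and higher (24.5% of all genes tested), 5 were past it and lower (23.6%) and 3 were not past it, and the libraries of 8 did not overlap between the groups (73.9% of all genes). The median log2 difference was -1.3 over the 10 genes and 0.08 over all genes. The higher genes were Tcf3, at 1.91 (SE 0.13), and Hey1, at 1.87 (SE 0.38). The lower ones were Atoh8 at -6.45 (SE 0.24), Id3 at -4.76 (SE 0.26), Olig1 at -4.09 (SE 0.27), Id2 at -1.98 (SE 0.17) and Hes6 at -1.61 (SE 0.12). Id1 was not past the threshold at -0.98 (SE 0.23). It was past it without NL 3 (8 of 10 genes past it), without c-MYC 1 (also 8) or with no fold-change threshold. Over all 16 alternatives the difference of Id1 lay between -1.18 and -0.06. Hes1 at -0.25 (SE 0.25) and Tcf4 at -0.21 (SE 0.21) turned to 0.67 and 0.72 once all libraries were set to an equal FPKM total, a rescaling that raised the median of all genes to 1.01 and gave 7061 genes higher and 1895 lower in place of 3435 and 3305.

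Between c-MYC/FOXO1AAA and c-MYC, 8 of the 10 genes were past the threshold and higher (15.9% of all genes tested), 1 was lower (12.7%), and the libraries of all 10 did not overlap (63.4% of all genes). The median log2 difference was 2.42 over the 10 genes and 0.03 over all genes. In order of size the higher genes were Olig1 at 11.37 (SE 0.29), Atoh8 at 7.15 (SE 0.26), Id3 at 5.42 (SE 0.28), Tcf4 at 3.99 (SE 0.22), Hey1 at 2.97 (SE 0.41), Id1 at 1.86 (SE 0.24), Hes1 at 1.36 (SE 0.27) and Hes6 at 1.30 (SE 0.13). Id2 was lower at -1.18 (SE 0.18), and Tcf3 was not past the threshold at 0.26 (SE 0.14). Hes1 was no longer past it without c-MYC 2 (8 of 10 genes past it), c-MYC 3 (8), c-MYC/FOXO1AAA 1 (7) or c-MYC/FOXO1AAA 2 (8), and Id2 was no longer past it without c-MYC/FOXO1AAA 1.

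Between c-MYC/FOXO1AAA and NL, 4 of the 10 genes were past the threshold and higher (31.2% of all genes tested), 1 was lower (26.6%), 5 were not past it, and the libraries of all 10 did not overlap (80.1% of all genes). The median log2 difference was 0.99 over the 10 genes and 0.21 over all genes. Olig1 at 7.28 (SE 0.27), Hey1 at 4.84 (SE 0.38), Tcf4 at 3.78 (SE 0.21) and Tcf3 at 2.18 (SE 0.13) were higher, and Id2 was lower at -3.17 (SE 0.17). Hes1 at 1.10 (SE 0.25), Id1 at 0.88 (SE 0.23), Atoh8 at 0.71 (SE 0.24), Id3 at 0.66 (SE 0.26) and Hes6 at -0.31 (SE 0.12) were not past the threshold, and Hes6 turned to 0.78 after rescaling to an equal FPKM total, where the median of all genes was 1.31 and 8129 genes were higher and 2099 lower in place of 4371 and 3728. The same rescaling put Hes1, Id1, Atoh8 and Id3 past the threshold, which made 8 genes higher and 1 lower. Without NL 1, or without NL 4, Hes1 was past the threshold, which made 6 genes.

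**Figure D2:**
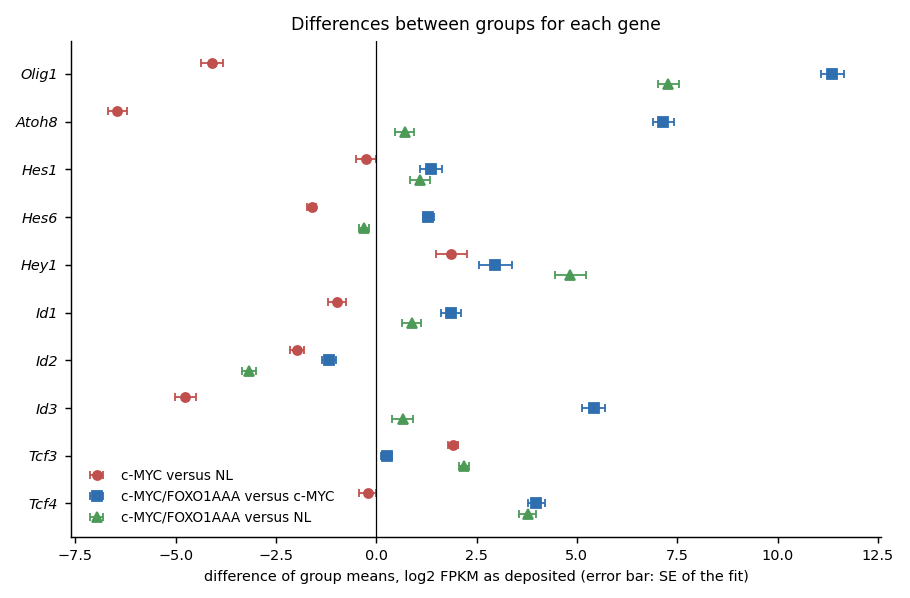
Differences of group means on the deposited log2 FPKM scale for the 10 genes, with the SE of the fit as error bars and 1 marker shape per comparison. Atoh8 and Id3 lie far to the left in c-MYC versus NL (-6.45 and -4.76) and far to the right in the comparison of the tumours (7.15 and 5.42), Olig1 reaches 11.37, and Id2 lies left of 0 in all comparisons.

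The inhibitors and their E-protein partners were also summed in each library. The ID genes Id1, Id2, Id3 and Id4 summed to 265 to 289 FPKM in NL, 49.4 to 76.2 FPKM in c-MYC and 145 to 176 FPKM in c-MYC/FOXO1AAA. The E-protein genes Tcf3, Tcf4 and Tcf12 summed to 19.4 to 23.9 FPKM in NL, 61.6 to 64.1 FPKM in c-MYC and 91.7 to 110 FPKM in c-MYC/FOXO1AAA. No groups overlapped in either sum with the deposited scaling. The sums were not rescaled to an equal FPKM total, which raised the median log2 difference of all genes in c-MYC/FOXO1AAA versus NL from 0.21 to 1.31. The order of the groups by these sums is therefore given for the deposited scaling only. The ratio of ID to E-protein FPKM was 11.4 to 13.7 in NL, 0.771 to 1.21 in c-MYC and 1.57 to 1.63 in c-MYC/FOXO1AAA, and this ratio within a library does not depend on how the libraries are scaled against each other.

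The composition of the ID sum differed as well. Id2 made up 65.2% to 69.7% of it in NL, 76.3% to 85.7% in c-MYC and 9.81% to 16.5% in c-MYC/FOXO1AAA. Id3 made up 23.7% to 29.2% in NL, 3.11% to 7.55% in c-MYC and 61.7% to 76.9% in c-MYC/FOXO1AAA, so that it took the place of Id2 as the main ID transcript. The share of Id4 was at most 0.164% in any library. Among the E proteins, Tcf4 made up 1.87% to 2.90% of the sum in c-MYC and 19.5% to 27.6% in c-MYC/FOXO1AAA, and Tcf3 held more than any other E protein in every library, at 51.6% to 79.4%.

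**Figure D3:**
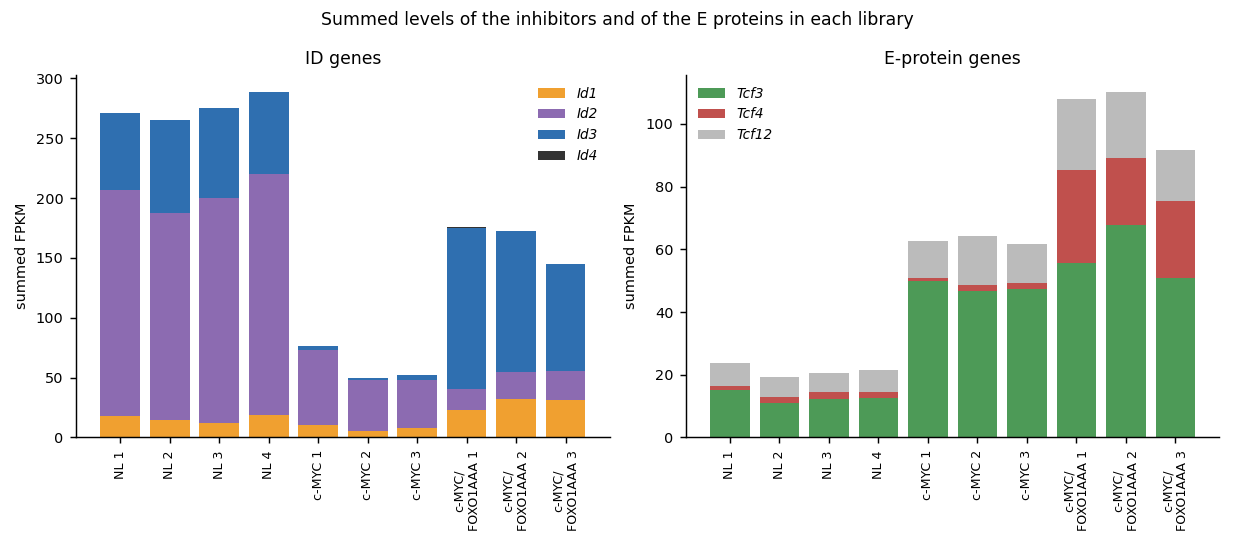
Stacked bars of FPKM in each library for the ID genes (left) and the E-protein genes (right), on linear axes from 0 with different ranges. With the deposited scaling, the ID sum is highest in NL (265 to 289 FPKM) and lowest in c-MYC. With the same scaling, the E-protein sum is highest in c-MYC/FOXO1AAA (91.7 to 110 FPKM). The main ID transcript is Id2 in NL and c-MYC and Id3 in c-MYC/FOXO1AAA.

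The other bHLH and HLH genes of the family were counted from a list of 58, of which 26 were in the table and 18 were tested. From c-MYC to c-MYC/FOXO1AAA, 12 rose and 2 fell (limma treat), against 15.9% and 12.7% of all genes tested. All 12 that rose had passed the filter only with the c-MYC/FOXO1AAA libraries counted, and 1 that fell only with the c-MYC libraries, so the filter favoured these directions and nothing is read from the counts. Of the 5 other genes, none rose and 1 fell. Over all genes, 811 of the 1088 that passed only with c-MYC/FOXO1AAA rose, and 173 of the 370 that passed only with c-MYC fell. Of the 12628 other genes tested, 1418 rose and 1614 fell. With no filter, 15 of the 26 genes rose and 3 fell, against 2872 and 1942 of all 16697 genes. The 4 largest by the rule for named genes were Olig2, given above, the muscle regulator Myog, Bhlha15, a factor of secretory cells, and Tcf24. Myog held no read in NL or c-MYC and 24.9, 35.2 and 17.4 FPKM in c-MYC/FOXO1AAA, at least 749-fold higher than in c-MYC, and its relatives Myod1, Myf5 and Myf6, which were noticed after their values were seen, were likewise without a read outside c-MYC/FOXO1AAA. Bhlha15 fell from 13.0, 16.7 and 15.3 FPKM in c-MYC to 0.128, 0.125 and 0.365 FPKM, a log2 difference of -6.11 (SE 0.83), having passed the filter only with c-MYC counted. Tcf24 fell from 2.91, 3.65 and 1.77 FPKM to 0.0678, 0.0958 and 0.122 FPKM, a log2 difference of -4.47 (SE 0.44, limma treat adjusted p 2.73e-05).

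The relatives of Hey1 and Hes1 stood in the same direction as these genes. Hey2, at 1.48, 1.55 and 2.12 FPKM in c-MYC/FOXO1AAA, had a log2 difference of 4.47 from c-MYC (SE 0.71), and Heyl, at 1.23, 2.91 and 2.44 FPKM, of 3.38 (SE 0.61). Hes5 held no read in NL or c-MYC and 0.988, 1.08 and 1.04 FPKM in c-MYC/FOXO1AAA. These 3 genes are outside the rule for named genes except by their kinship to Hes1 and Hey1, and were chosen after their values were seen. All 3 passed the filter only with c-MYC/FOXO1AAA counted.

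Between c-MYC and NL, 2 of the 18 genes rose and 4 fell, against 24.5% and 23.6% of all genes tested. Of those that rose, 1 had passed the filter only with c-MYC counted, and of those that fell, 2 only with NL counted. Of the 12 that were not called, 7 held 3 reads or fewer over each group. Bhlha15 rose from 0.907, 0.0304, 0.528 and 0.223 FPKM in NL, a log2 difference of 5.61 (SE 0.77), which was 4.86 without NL 2. Tcf12, the E protein HEB, rose from 6.25 to 7.27 FPKM in NL to 11.8, 15.5 and 12.4 FPKM, a log2 difference of 0.97 (SE 0.14, limma treat adjusted p 0.0204) that was not past the threshold without c-MYC 2 or with log2(FPKM + 1). Hand2, a factor of stellate cells, fell from 3.02 to 4.27 FPKM to 0.185, 0 and 0.417 FPKM, a log2 difference of -4.38 (SE 0.74), which was -3.47 without c-MYC 2 and -5.08 without c-MYC 3. Tcf21, another stellate-cell factor, fell from 6.20 to 7.83 FPKM to 0.301, 0.168 and 0.473 FPKM, a log2 difference of -4.16 (SE 0.43). Hand2 and Tcf21 are the genes that passed only with NL counted.

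Relative to NL, 13 of the 18 genes rose and 4 fell in c-MYC/FOXO1AAA, against 31.2% and 26.6% of all genes tested. But 12 of the 13 had passed the filter only with c-MYC/FOXO1AAA counted and 2 of the 4 only with NL counted. The filter therefore favoured these directions too. Of the 4 other genes, 1 rose and 2 fell. Over all genes, 3450 of 12021 such genes rose and 2981 fell. Hand2 stood at 0.0691, 0.584 and 0.369 FPKM, a log2 difference from NL of -3.54 (SE 0.74) that was -2.84 without c-MYC/FOXO1AAA 1. Tcf24 was lower by a log2 difference of -3.86 (SE 0.41, limma treat adjusted p 2.01e-05). The stellate marker Lrat was also low, at 0.144, 0.432 and 0.191 FPKM against 3.39 to 4.38 FPKM in NL. Reln, another marker of that list, was not low, at 8.24, 4.13 and 5.57 FPKM against 4.48 to 5.39 FPKM in NL. The mesenchymal markers Des (57.4 to 69.2 FPKM), Acta2 (41.5 to 91.1 FPKM) and Dcn (178 to 312 FPKM) stood above all other libraries. Of the 9 stellate and mesenchymal markers, 6 were higher than in NL and 1 was lower (31.2% and 26.6% of all genes tested). The part of other cell types in the levels of the 10 genes was not tested.

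**Figure D4:**
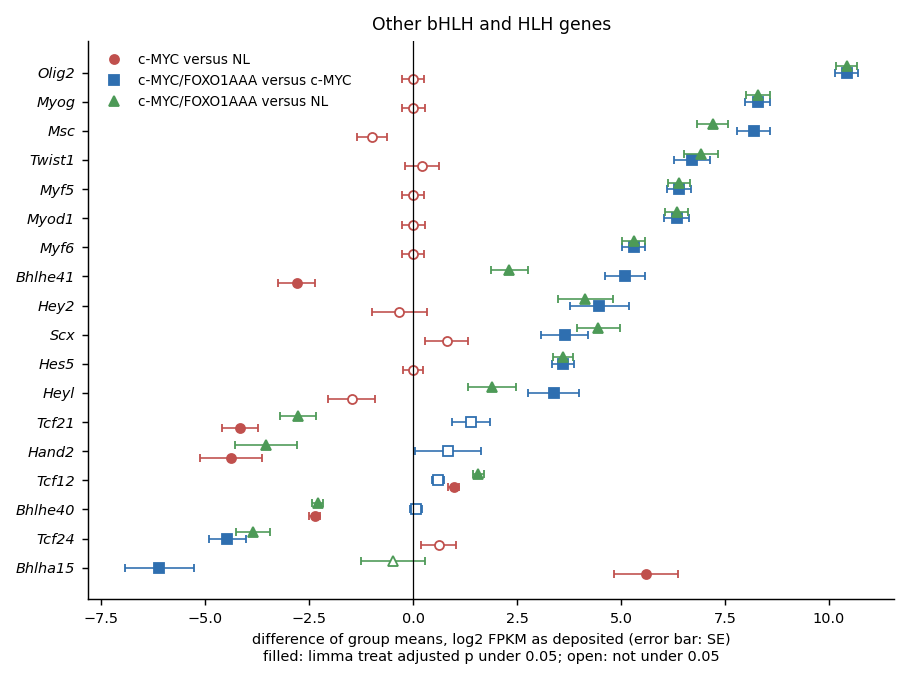
Differences of group means on the deposited log2 FPKM scale for the 18 tested genes of the family outside the set, ordered by c-MYC/FOXO1AAA versus c-MYC, with the SE of the fit as error bars. Filled markers passed the limma treat threshold, and the 12 genes filled on the right against c-MYC passed the filter on low values only with c-MYC/FOXO1AAA counted. Olig2 and Myog lie at 10.42 and 8.29 against both c-MYC and NL, whereas Bhlha15 and Tcf24 are at the bottom at -6.11 and -4.47 against c-MYC.

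Components of the Notch pathway, which induces HES and HEY genes, were counted from a list of 36 (35 in the table, 33 tested). Of these, 7 rose and 3 fell from c-MYC to c-MYC/FOXO1AAA, against 15.9% and 12.7% of all genes tested. Of the 7, 4 had passed the filter only with c-MYC/FOXO1AAA counted, Maml2 and Maml3 among them. Of the 27 genes that did not depend on either group, 3 rose and 3 fell, against 1418 and 1614 of all 12628 such genes. Maml2, a co-activator of the Notch complex, was 12.7, 13.6 and 8.19 FPKM against 0.156, 0.405 and 0.363 FPKM in c-MYC, a log2 difference of 5.03 (SE 0.39). Maml3, of the same family, was 1.67, 1.94 and 1.53 FPKM against 0.0329, 0.0128 and 0.144 FPKM, a log2 difference of 4.87 (SE 0.53) that was 5.59 without c-MYC 3. Psen2, a γ-secretase subunit, fell from 110, 124 and 116 FPKM to 10.7, 11.0 and 20.3 FPKM, a log2 difference of -3.12 (SE 0.20, limma treat adjusted p 2.21e-06). The receptor gene Notch1 fell from 4.64, 4.17 and 3.49 FPKM to 1.75, 2.0 and 1.43 FPKM, a log2 difference of -1.24 (SE 0.23, limma treat adjusted p 0.031), and this call was lost with log2(FPKM + 1), with rescaling to an equal FPKM total, and without c-MYC 1, c-MYC 2, c-MYC/FOXO1AAA 1 or c-MYC/FOXO1AAA 3 (adjusted p 0.000894 to 0.108 over its alternatives).

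Between c-MYC and NL, 8 of the 33 Notch genes rose and 4 fell, against 24.5% and 23.6% of all genes tested. These counts were 19 and 2 once rescaled to that equal total. Of the 8, 1 had passed the filter only with c-MYC counted, and of the 4, 1 only with NL counted. Dlk1, a Notch ligand-like gene of fetal liver, was 4.52, 7.18 and 18.9 FPKM in c-MYC against 0.0684 to 0.564 FPKM in NL, a log2 difference of 5.32 (SE 0.70, limma treat adjusted p 0.000121). The ligand gene Jag2 was 3.66, 2.23 and 4.83 FPKM against 0.145 to 0.319 FPKM, a log2 difference of 4.00 (SE 0.34, limma treat adjusted p 4.69e-06). The γ-secretase subunit genes Aph1b, at -2.98 (SE 0.28, passing the filter only with NL counted), and Psenen, at -1.31 (SE 0.13, limma treat adjusted p 0.00035), were lower, the latter no longer called after rescaling (-0.38). Between c-MYC/FOXO1AAA and NL, 12 rose and 4 fell (31.2% and 26.6% of all genes tested), or 25 and 2 after rescaling. Of the 12, 3 had passed the filter only with c-MYC/FOXO1AAA counted, and of the 4, 1 only with NL counted. Jag2 at 4.96 (SE 0.34, limma treat adjusted p 4.37e-07) and Dlk1 at 4.97 (SE 0.70, limma treat adjusted p 0.000152) were highest. Aph1b at -4.81 (SE 0.28) and Psen2 at -3.38 (SE 0.19, limma treat adjusted p 1.69e-07) were lowest.

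Components and liver targets of BMP and SMAD signalling, which acts on ID genes and Atoh8, were counted from a list of 31 (29 in the table, 27 tested). Between c-MYC and NL, 2 rose and 11 fell (24.5% and 23.6% of all genes tested), 3 of the latter having passed the filter only with NL counted, or 7 and 10 after rescaling to an equal FPKM total. Hamp, the iron hormone hepcidin and a BMP target of hepatocytes, fell from 4264 to 5352 FPKM in NL to 4.25, 6.73 and 25.8 FPKM, a log2 difference of -8.99 (SE 0.47, limma treat adjusted p 1.09e-07), which was -9.73 without c-MYC 3. Bmp7, a ligand, rose by 2.75 on the log2 scale (SE 0.34, limma treat adjusted p 0.000134) and the receptor gene Acvr2b by 1.64 (SE 0.21, limma treat adjusted p 0.000782).

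Of the 27 BMP genes, 10 rose and 3 fell from c-MYC to c-MYC/FOXO1AAA (15.9% and 12.7% of all genes tested). Only Bmpr1b among them had passed the filter through c-MYC/FOXO1AAA alone. The receptor gene Bmpr1b held 1 read over all c-MYC libraries and 8.30, 7.39 and 4.69 FPKM in c-MYC/FOXO1AAA, a ratio of 2074 (95% counting interval 372 to 81956). Fst, the activin and BMP antagonist follistatin, was 5.90, 3.40 and 4.79 FPKM against 0, 0.0574 and 0.118 FPKM, a log2 difference of 5.37 (SE 0.42, limma treat adjusted p 3.89e-06). The co-receptor gene Hfe2 fell by 3.33 on the log2 scale (SE 0.19, limma treat adjusted p 8.64e-07), and Smad9, an intracellular mediator, fell by 1.54 (SE 0.21, limma treat adjusted p 0.00248). Bmp4, a ligand outside the rule and chosen after its values were seen, was 4.23 to 5.46 FPKM in NL, 0.167 to 0.200 FPKM in c-MYC and 5.79 to 6.84 FPKM in c-MYC/FOXO1AAA, the same order of groups as Id3. Other ligand genes of the list did not share this order. Bmp2, Bmp5, Bmp6 and Gdf2 had means of 1.11, 0.106, 0.521 and 0.364 FPKM in c-MYC/FOXO1AAA, below 4.05, 0.501, 1.93 and 5.44 FPKM in NL. Bmp7 had means of 0.644 FPKM in NL, 4.39 FPKM in c-MYC and 4.13 FPKM in c-MYC/FOXO1AAA.

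Relative to NL, 7 of the 27 BMP genes rose and 11 fell in c-MYC/FOXO1AAA (31.2% and 26.6% of all genes tested), 1 and 3 of them having passed the filter only through the higher group, or 12 and 5 after rescaling to an equal FPKM total. Hamp was 25.1, 30.7 and 39.3 FPKM, far below NL at a log2 difference of -7.25 (SE 0.47, limma treat adjusted p 3.42e-07). The hepatocyte markers were also low, at sums of 1198 to 2714 FPKM against 117071 to 127288 FPKM in NL. What part of the fall of Hamp goes with them was not tested. Id1, Id3 and Atoh8 stood above NL in these libraries but were not past the threshold. Tmprss6, a protease that restrains hepcidin, was lower by a log2 difference of -5.62 (SE 0.23, limma treat adjusted p 1.3e-08). Bmpr1b was higher (ratio 1464, 95% counting interval 263 to 57837), as was Bmp7, at a log2 difference of 2.67 (SE 0.34, limma treat adjusted p 0.00013).

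Genes of the Groucho/TLE co-repressors, which HES and HEY factors recruit, were all tested (6 of 6). From c-MYC to c-MYC/FOXO1AAA, Tle3 rose by 3.95 on the log2 scale (SE 0.33, limma treat adjusted p 8.08e-06), from 0.692, 0.514 and 1.44 FPKM to 13.7, 14.4 and 10.6 FPKM. Tle6 at -2.43 (SE 0.45, limma treat adjusted p 0.00444), Tle2 at -2.29 (SE 0.29, limma treat adjusted p 0.000461) and Tle1 at -1.56 (SE 0.15, limma treat adjusted p 0.000172) fell. Of all genes tested, 15.9% rose and 12.7% fell there. Between c-MYC and NL, 1 rose and 2 fell (24.5% and 23.6% of all genes tested), or 3 and 2 after rescaling to an equal FPKM total. Tle6 rose by 1.90 (SE 0.42, limma treat adjusted p 0.0115, not past the threshold without c-MYC 1). Tle3 at -2.73 (SE 0.30, limma treat adjusted p 6.54e-05) and Aes at -1.86 (SE 0.10, limma treat adjusted p 6.74e-07) fell. Between c-MYC/FOXO1AAA and NL, 1 rose and 3 fell (31.2% and 26.6% of all genes tested), or 2 and 2 after rescaling. Among them were Tle4 at 1.52 (SE 0.17, limma treat adjusted p 0.000298), Tle2 at -2.91 (SE 0.27, limma treat adjusted p 1.11e-05) and Aes at -2.45 (SE 0.10, limma treat adjusted p 2.46e-08).

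Finally, the genes whose pattern over the 10 libraries was most like each member were found by the root mean square difference of centred log2 FPKM, for the 9 members that reached a mean of 5 FPKM in a group. For Olig1 the nearest was Htra3, a secreted protease, at a distance of 0.54, with means of 5.82, 0.459 and 942 FPKM in NL, c-MYC and c-MYC/FOXO1AAA. Spock2 (1.03) and Scara3 (1.12) followed. Atoh8 was nearest to Fam169b (0.47), Mme and Tpd52l1 (both 0.56), and Id3 to Gas1 (0.29), Pls3 (0.32) and Plce1 (0.39). Among the nearest genes to Id2 were those of peroxisomes and mitochondria, Ech1 (0.09) and Pex16 (0.16), which enter fatty acid breakdown and peroxisome assembly. Ech1 had means of 499, 138 and 63.0 FPKM in the same order of groups.

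Among the nearest genes to Tcf3 were Uba2 (0.09), which activates SUMO, and Odf2 (0.10). Tcf4 was nearest to Rab31 (0.22) and close to Smpx (0.24), which had no reads in NL or c-MYC. Hes1 was nearest to Tsga10 (0.19), Ifit2 and Gm20186 (both 0.21), Hes6 to Zdhhc18 (0.13), Chmp1b and Magee1 (both 0.16), and Id1 to Fam217b, Zfp367 and Rhobtb2 (0.25 each). The deposited log2 values hold genes without reads at a floor, as for Smpx in NL and c-MYC. Olig1 in c-MYC, with 1 read, lies near that floor. Distances that involve such genes depend on it. All these distances describe 3 groups of libraries and were not tested.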

How the data were processed

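RNA sequencing of normal liver and of liver tumours gave 10 libraries, grouped by their titles (NL, n = 4; c-MYC, n = 3; c-MYC/FOXO1AAA, n = 3). The deposited values are log2 FPKM, made by the authors from read counts with edgeR. The labels name FastQC 0.11.7 and the build GRCm38, while the aligner, the counting tool, the annotation and the strand setting are not given in the sources used here. The values showed that the authors had taken the logarithm after adding 2 prior counts, adjusted for library size.

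That prior makes a floor which depends only on gene length, so the log2 values were turned back into whole reads by trying lengths up to 130000 bp (tolerance 0.003 reads). A single length was found for 16608 of 16697 genes (99.47%). The reads were divided by that length and the effective library size to give the FPKM printed in the text. The effective size is the reads times a scaling factor recovered from the deposited values. That factor was 0.649 to 0.684 in NL, 1.256 to 1.295 in c-MYC and 1.454 to 1.502 in c-MYC/FOXO1AAA. The 372 entries without a symbol were left out. Libraries held 13123719 to 20547746 reads. Replicates differed beyond sampling noise (chi-square per degree of freedom 8.66 to 31.6, r of log2 FPKM 0.9743 to 0.9851), so none is a repeat deposit of another.

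Differences were fitted to the deposited log2 FPKM, with a mean per group over all 10 libraries, by limma 3.58.1 (R 4.3.3, statmod 1.5.0). Genes of at least 1 FPKM in at least 3 libraries were kept (14017). Its treat function, with trend and robust estimation, gave 2-sided tests against a 1.5-fold change. A gene was called when the p, adjusted after Benjamini and Hochberg over all genes tested, was under 0.05. The study used a count model with the same kind of threshold. Here the fit was made to the deposited log2 unit, and no count model was run on the recovered reads. Log2 differences carry the prior count and understate the change of low genes. Ratios against groups without reads are bounds at 3 reads over the group, and these bounds and intervals cover counting error only. The script was tested on simulated data.

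The 10 genes and all gene lists were chosen with earlier results of these data known. Named genes of each pathway list were up to 2 called genes in each direction and comparison, with the largest log2 difference and at least 1 FPKM in a group. For each member with a mean of at least 5 FPKM, 3 genes with the most similar pattern were taken. Some genes that these rules or lists hold are not reported here. The alternatives were log2(FPKM + 1), no filter, rescaling to the same FPKM total or median, no fold-change threshold, the replicate number as a block, and each library left out in turn with the filter kept. Positions are those of GENCODE M21, and promoter sequences are those of RefSeq.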

Additional observations from a re-analysis of the deposited data

Results flagged for a closer look

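Among 39 named genes, 6 had a normal-liver library that stood apart from the other NL libraries by Dixon's test, and none of them was one of the 10 bHLH and HLH genes. The test calls about 1 group in 20 by chance. Jag2 stood at 0.319 FPKM in NL 1, above the others, and Maml3 at 0.717 FPKM in NL 2. Psen2 stood at 151 FPKM in NL 3 and the BMP co-receptor gene Hfe2 at 62.8 FPKM in NL 2, both above the others. Tmprss6 stood at 587 FPKM in NL 2, below the others. Bmpr1b stood at 0.0169 FPKM in NL 1, which is a single read where the other NL libraries had none.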

How the results depend on the processing

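The direction of every member past the threshold held under all 16 alternatives in each comparison. These differences chose the genes, so this describes the processing and adds no support. Without a fold-change threshold, 10432 genes were called in c-MYC versus NL and 7688 between the tumours, and 10 members were past the threshold in c-MYC/FOXO1AAA versus NL. That setting called 23 Notch genes in c-MYC versus NL, 19 between the tumours and 26 in c-MYC/FOXO1AAA versus NL. Rescaling to the same FPKM total called 9 members in c-MYC/FOXO1AAA versus NL, 21 and 27 Notch genes in the comparisons of c-MYC and of c-MYC/FOXO1AAA with NL, and 5 co-repressor genes in c-MYC versus NL. With log2(FPKM + 1), 7 Notch genes were called in c-MYC versus NL, Hey1 was no longer past the threshold there (0.45) and Hes6 was not after rescaling to the same FPKM total (-0.68). The cause was not tested.

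Replicate numbers did not pair the libraries, since the correlations of same-numbered deviations lay between -0.04 and 0.027. With the replicate number as a block, 6407 genes were called in c-MYC versus NL, 3852 between the tumours and 7810 in c-MYC/FOXO1AAA versus NL, and Hes1 was then past the threshold in the last. Leaving out each library gave 6385 to 6794, 3593 to 4022 and 7681 to 8161 genes. With 1 read in c-MYC, the ratio of Olig1 between the tumours is known only within its counting interval (3618 to 796290).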
